A study of Mus musculus with 16 samples.

Results

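C2C12 is a line of mouse myoblasts, the dividing precursors of skeletal muscle, that stop dividing and fuse into multinucleated myotubes when serum is lowered. Its control cells, followed from growth to differentiation, are described here across all genes. They were chosen by their labels: wild-type C2C12 cells, taken either in growth medium (GM) with 20% fetal bovine serum at about 80% confluency or after 3 days in 2% horse serum (DM3). These are 8 of the 16 libraries of the series, 4 at each stage, from control populations 1 and 2 with the replicates BR1 and BR2 of each. The other 8 libraries, used here for a shared estimate of the spread and for 1 comparison, are triple knockout cells (tKO) that lack miR-1a-1 and miR-1a-2 as well as miR-206, from 2 clones (1 and 2). According to the labels all cells are C2C12 negative for PAX7, and the controls are populations and not clones. The labels do not say whether BR1 and BR2 are separate cultures, so p-values measure the spread between these libraries, which may be partly technical. Libraries were made from poly(A)-enriched RNA of whole cultures, in which fewer cells of a type and less RNA per cell cannot be told apart.

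During muscle differentiation the basic helix-loop-helix factors MyoD and Myf5, with myogenin acting later and with partners of the MEF2 family, bind E-boxes and AT-rich sites at muscle genes. Cells leave the cycle through CDK inhibitors and the retinoblastoma protein, and fuse by means of the membrane protein myomaker. They build sarcomeres, the repeated units of actin and myosin filaments, around which a calcium store is organised. Acetylcholine receptors lie in the cell membrane. Embryonic and perinatal isoforms of the contractile proteins come first and adult ones later.

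Values are FPKM, the number of fragments scaled to gene length and to the total of counted fragments. Sums over the table were 24848686 to 34954079 fragments in the 4 GM libraries and 31834264 to 56585952 in the 4 DM3 libraries. A gene entered the test if its mean over the 16 libraries was at least 0.5 FPKM, which left 11832 of 35275 genes, 10930 of them protein coding. A log2 change is the mean of log2(FPKM + 1) in DM3 minus that in GM, so it understates the change of genes near 0, and it was tested with limma and Benjamini-Hochberg adjustment over all 11832 genes. Each set of 4 values is given in the order population 1 BR1, population 1 BR2, population 2 BR1 and population 2 BR2.

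Most tested genes changed: 7272 of 11832 (61.5%) had an adjusted p under 0.05, of which 2743 (23.2%) were higher and 4529 (38.3%) lower in DM3. The few largest changes were rises, since 65 genes (0.549%) rose by at least 3 on the log2 scale and 21 (0.177%) fell by that much, whereas at a change of at least 1 there were 904 risers (7.64%) and 1572 fallers (13.3%). The 4 DM3 libraries lay wholly above the 4 GM libraries for 2902 genes (24.5%) and wholly below them for 4715 (39.8%). The split into rises and falls depended on scaling. The median of all genes was -0.15 in the deposited FPKM and 0.0097 after median-of-ratios scaling, which divides each library by its median ratio to a common reference, and that scaling called 3611 higher (30.5%) and 3632 lower (30.7%). Each list below is therefore read against the median of -0.15, and against the 23.2% of all genes called higher and 38.3% lower. A gene low in GM passed the filter only through the libraries in which it is high, so the counts over tested members of such lists are a description.

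**Figure D1:**
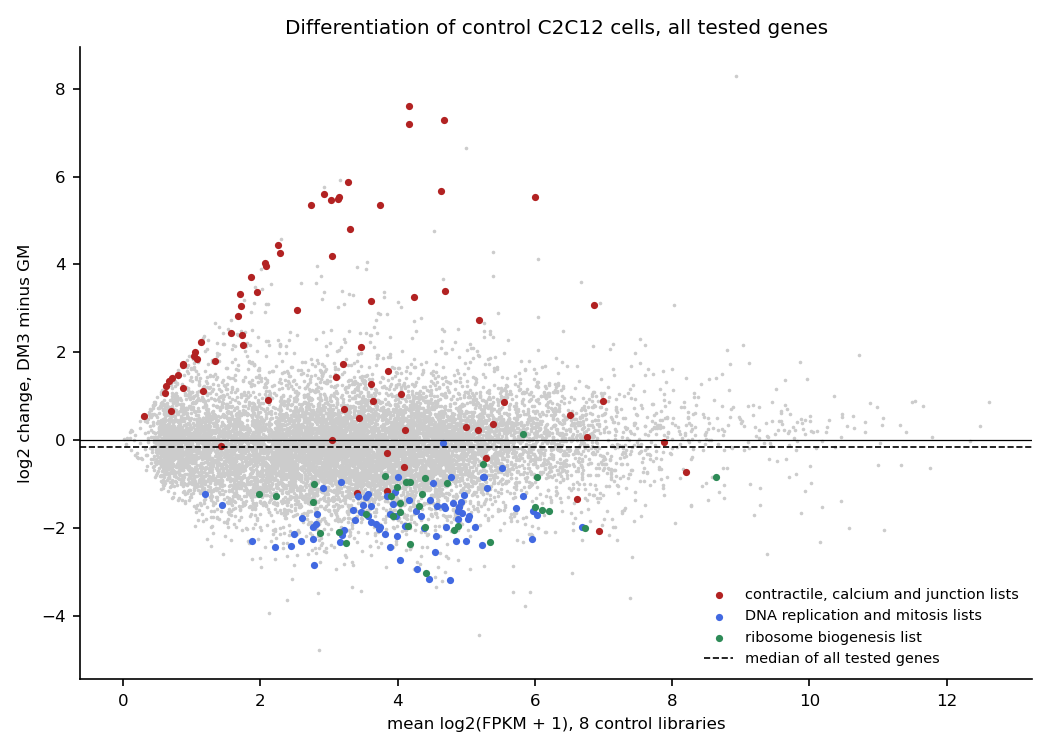
Log2 change (DM3 minus GM, mean of 4 libraries each, vertical axis) against mean log2(FPKM + 1) of the 8 control libraries (horizontal axis) for the 11832 tested genes, in grey. Members of the contractile, calcium and junction lists (red) lie mostly far above 0, and the DNA replication and mitosis lists (blue) lie below it, as does ribosome biogenesis (green) with the exception of Polr1c at 0.14; the dashed line is the median of all genes, -0.15.

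Among protein-coding genes whose libraries did not overlap between stages, the 15 with the largest rises were led by sarcomere genes: Myl1 and Mylpf (fast myosin light chains), Tnnt3, Tnnt1 and Tnni2 (troponins), Actn3 (alpha-actinin of fast fibres), Klhl41 (a sarcomere chaperone adaptor), Acta1 (skeletal alpha-actin) and Myom2 (an M-band protein). With them stood Jsrp1 and Atp2a1 of the calcium store, Chrng (the fetal acetylcholine receptor subunit), Hfe2 (hemojuvelin, a BMP coreceptor made by muscle) and Igfbp5 (a binding protein for insulin-like growth factors). Myl1 (chr1:66924295-66945404, mm10 as in the deposited table) was at 0.0793, 1.12, 0.0822 and 0.114 FPKM in GM and 229, 326, 177 and 294 in DM3 (log2 change 7.60 ± 0.28 (SE), adjusted p = 1.14e-11). One GM library, population 1 BR2, stood above the other GM libraries in Myl1, and every DM3 library was far above it. Hfe2 went from 0.0142, 0.0797, 0 and 0.0456 to 60.4, 52.7, 55.6 and 52.9 FPKM, with 0 to 4 fragments in each GM library (log2 change 5.77 ± 0.15 (SE), adjusted p = 8.69e-14).

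Igfbp5 rose 127-fold, from 4.64, 1.09, 3.31 and 1.08 FPKM in GM to 381, 276, 317 and 311 in DM3 (log2 change 6.64 ± 0.53 (SE), adjusted p = 5.01e-08). All 4 DM3 libraries of Igfbp5 were far above GM, and within GM the BR1 libraries were higher than the BR2 libraries. Igf2, a growth factor of embryonic muscle that Igfbp5 binds, went from 0.121, 1.66, 0.170 and 1.67 to 20.0, 24.2, 15.5 and 20.2 (log2 change 3.57 ± 0.33 (SE), adjusted p = 1.72e-07), with the GM order of BR1 and BR2 the other way round.

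The 15 largest falls held no sarcomere gene. Itgb7 (the integrin beta-7 chain, best known from lymphocytes) had the largest fall on the log2(FPKM + 1) scale, from 33.2, 36.1, 46.4 and 33.9 FPKM in GM to 0.362, 0.337, 0.458 and 0.375 in DM3 (log2 change -4.78 ± 0.35 (SE), adjusted p = 1.72e-08). The secreted chemokines Ccl2 (log2 change -4.44 ± 0.45 (SE), adjusted p = 5.08e-07) and Cxcl5 (log2 change -3.59 ± 0.49 (SE), adjusted p = 1.26e-05) fell. Lgr6, a receptor of R-spondins, was at 18.2, 13.9, 17.5 and 14.97 in GM and 0.110, 0.156, 0.113 and 0.0884 in DM3 (log2 change -3.93 ± 0.45 (SE), adjusted p = 2.01e-06), and Hmga2, an architectural chromatin protein of embryonic and growing cells, at 18.99, 23.4, 25.7 and 24.9 and 0.790, 1.23, 1.10 and 1.54 (log2 change -3.49 ± 0.28 (SE), adjusted p = 4.1e-08). Neither gene's groups came near each other. By the ratio of means Lgr6 fell more than Itgb7, 138-fold against 97.6-fold. The remaining falls were Anxa8 (an annexin), Tigit (an immune receptor), Grem1 (a BMP antagonist), Wisp2 (a CCN matricellular protein), Ppp1r10 (a nuclear subunit of protein phosphatase 1), Mcm5 (replication licensing), the splicing factors Srsf2 and Srsf3, and Actg2 and Myl9 (smooth muscle actin and myosin light chain), with log2 changes from -3.78 for Anxa8 to -3.16 for Myl9.

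**Figure D2:**
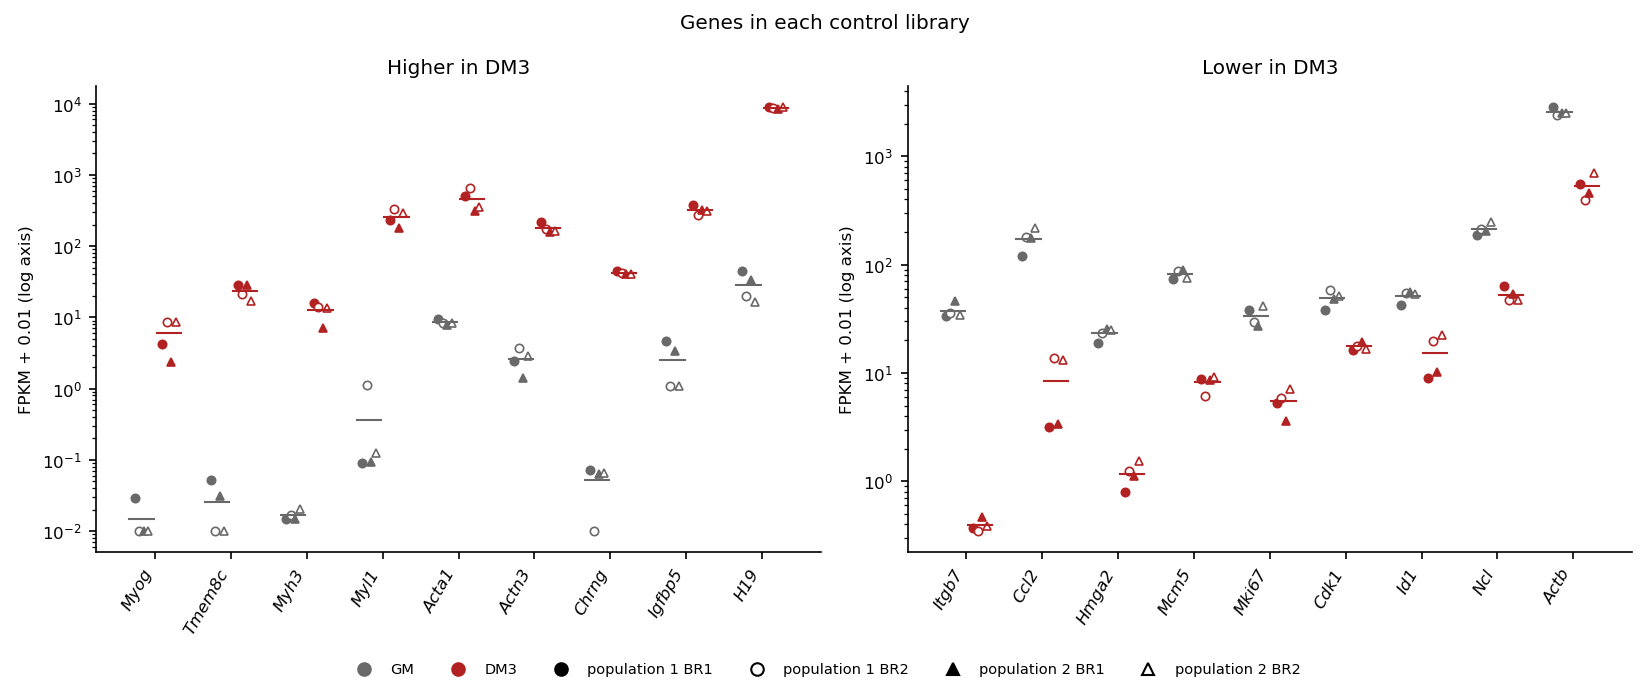
FPKM of 18 genes in each of the 8 control libraries (logarithmic axis of FPKM + 0.01, circles population 1, triangles population 2, filled BR1, open BR2; grey GM, red DM3; the bar is the mean of 4). The 9 genes on the left are higher in all 4 DM3 libraries than in any GM library, and the 9 on the right are lower.

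Of the myogenic regulatory factors, 9 of 13 listed genes were tested, 5 were called higher and 2 lower, with a median log2 change of 0.52. A GM mean under 0.5 FPKM was found for 2 of the 9. Myog, encoding myogenin, was represented by 1, 0, 0 and 0 fragments in the 4 GM libraries and by 239, 732, 112 and 438 in the 4 DM3 libraries, which is 4.19, 8.65, 2.35 and 8.65 FPKM (log2 change 2.66 ± 0.39 (SE), adjusted p = 2.4e-05, a value that depends on the added 1 and is no bound on the fold). In DM3 both BR2 libraries were above both BR1 libraries. Myod1, encoding MyoD, was listed at 0 in all 4 GM libraries and at 1.40, 2.75, 0.746 and 2.72 FPKM in DM3, at least 29.2-fold higher when GM is set to the floor of 3 fragments per library (log2 change 1.47 ± 0.22 (SE), adjusted p = 2.32e-05). A listed 0 may be a failed estimate and not absence, in which case such a lower bound and the call do not hold. Rpl24, a ribosomal protein every cell uses, was likewise listed near 0, at 0.296, 0.238, 0.263 and 0.499 FPKM in GM.

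Myf5, the factor that acts with MyoD in myoblasts, was at 20.6, 13.2, 16.4 and 17.9 in GM and 20.3, 13.2, 15.5 and 26.4 in DM3, the groups overlapped and the difference did not pass the test (log2 change 0.11 ± 0.28 (SE), adjusted p = 0.755). Tcf12, an E-protein partner, rose by 0.78. Six4, a homeodomain factor, rose by 0.52, but leaving out any 1 library other than population 1 BR1 in GM and population 2 BR1 in DM3 ended that call (0.44 to 0.52), and so did a block for population and replicate (adjusted p = 0.0533, limma). Eya1, a cofactor of homeodomain proteins, and Tcf3, the E-protein gene of E12 and E47, fell by 0.58 and 0.38. Pax7, Pax3, Myf6 and Msc were below the filter.

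In the MEF2 family and its partners 10 of 16 genes were tested, 6 were higher and 2 lower, with a median of 0.84. Among the 10, 2 had a GM mean under 0.5 FPKM. Mef2a stood at 16.7, 13.4, 15.7 and 18.2 in GM and 33.3, 33.0, 29.8 and 35.8 in DM3, and Mef2d at 21.7, 20.4, 20.9 and 20.8 and 48.2, 43.0, 52.9 and 34.5 (log2 change 1.04 ± 0.16 (SE), adjusted p = 2.71e-05). Both rose, with a ratio of means of 2.06 and 2.13, while Mef2c and Mef2b were below the filter. Smyd1, a muscle methyltransferase that is a MEF2 target, had at most 1 fragment in any GM library and 4.64, 4.11, 2.99 and 4.62 FPKM in DM3 (log2 change 2.32 ± 0.16 (SE), adjusted p = 9.07e-09). Srf, the serum response factor, and Tead1, which binds MCAT sites of muscle genes, fell by 0.96 and 0.60, the call of Tead1 being lost without population 1 BR1 in GM, population 2 BR2 in GM or population 1 BR2 in DM3 (-0.57 to -0.52).

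Of 13 tested inhibitors of differentiation 3 were higher (23.1%) and 4 lower (30.8%), shares near those of all genes, and their median changed sign with scaling, from -0.14 in FPKM to 0.052 after median-of-ratios scaling. Id1 and Id2, which bind E-proteins and keep them from MyoD, both fell. Id1 was at 42.0, 55.1, 56.0 and 53.3 FPKM in GM and 9.01, 19.6, 10.2 and 22.5 in DM3 (log2 change -1.78 ± 0.32 (SE), adjusted p = 0.000148), Id2 at 22.1, 27.0, 27.0 and 31.9 and 2.76, 4.51, 2.55 and 9.22 (log2 change -2.41 ± 0.32 (SE), adjusted p = 8.38e-06). In DM3 both BR2 libraries kept more of each than the BR1 libraries did, and all lay under every GM library. Id3 was at 57.7, 61.1, 71.9 and 56.6 and 28.7, 52.99, 27.7 and 67.0, with overlap and an adjusted p of 0.228 (limma). Hes1 and Twist2 fell, and Bhlhe40, Bhlhe41 and Zeb1 rose, the call of Zeb1 being lost without population 2 BR1 or population 1 BR2 in GM, or without population 1 BR1 or population 2 BR2 in DM3 (0.72 to 0.78).

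In the fusion list 6 of 17 tested genes were higher (35.3%) and 8 lower (47.1%), against 23.2% and 38.3% of all genes, with a median of -0.26. As 4 of the 17 had a GM mean under 0.5 FPKM, the share of rises is a description. Tmem8c, the file's name for the gene of myomaker, had 2, 0, 1 and 0 fragments in the GM libraries and 1478, 1663, 1254 and 787 in DM3, or 28.0, 21.3, 28.5 and 16.8 FPKM (log2 change 4.57 ± 0.27 (SE), adjusted p = 1.98e-09). Gm7325, the name in the table for the gene of myomerger (also called myomixer), which acts with myomaker, was listed at 0 in GM and at 0.0307, 0.477, 0.0737 and 0.0346 in DM3 (adjusted p = 0.658, limma), its highest value in population 1 BR2. All its control values were under the filter, so it was tested only through the tKO libraries, which also enter the spread. Cdh15, the muscle cadherin, rose 2.86-fold (log2 change 1.41 ± 0.20 (SE), adjusted p = 2.01e-05), as did Trim72 (a membrane repair protein), Jam2, Elmo1 and Dysf (dysferlin). Kirrel, an adhesion molecule of the nephrin family, went from 50.8, 46.4, 48.2 and 49.9 to 15.03, 15.8, 16.2 and 19.1 (log2 change -1.51 ± 0.12 (SE), adjusted p = 5.33e-08), and Adam12, Cdh2 (N-cadherin), Myof (myoferlin), Dock1, Dock5, Ehd2 and Arhgap10 also fell.

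Of the 17 genes in the muscle myosin list 6 passed the filter, 2 of them with a GM mean under 0.5 FPKM. All 6 were higher, with a median of 2.94. The list took 0.00114% of fragments in GM and 0.0655% in DM3 (means of 4; exact permutation p = 0.0286, adjusted 0.0413). Myh3, the embryonic heavy chain, had 1, 1, 1 and 2 fragments in GM and reached 16.1, 14.01, 7.14 and 13.4 FPKM in DM3 (log2 change 3.71 ± 0.39 (SE), adjusted p = 8.72e-07). It was the only heavy chain to pass the filter. Mylpf went from 0.598, 1.73, 1.39 and 0.682 to 327, 383, 302 and 275 (log2 change 7.29 ± 0.36 (SE), adjusted p = 3.95e-10), and Myl4, the embryonic light chain, from 0.524, 0.615, 0.544 and 0.657 to 7.64, 8.70, 4.78 and 4.39 (log2 change 2.17 ± 0.44 (SE), adjusted p = 0.000454). Myl6b, a light chain of slow and non-muscle myosin, also rose. The adult heavy chains Myh1, Myh2 and Myh4, the perinatal Myh8 and the slow Myh7 were below the filter, and reads of these closely similar genes may be divided among them.

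Of the 15 tested genes for muscle actins, troponins and tropomyosins 11 were higher and 2 lower, with a median of 1.72. Of the 15, 8 had a GM mean under 0.5 FPKM. The list's share of fragments, 0.225% in GM and 0.249% in DM3, did not pass the test (exact permutation p = 0.257, adjusted 0.279). Acta1 was at 9.48, 8.40, 7.68 and 8.36 FPKM in GM and 506, 653, 315 and 355 in DM3 (log2 change 5.54 ± 0.57 (SE), adjusted p = 6.91e-07), a 53.9-fold difference of means, with population 1 above population 2 at DM3 and no overlap between stages. The cardiac actin gene Actc1, which differentiating C2C12 cells are known to use, was at 0, 0.0546, 0 and 0.0209 in GM. In DM3 it was at 0.836, 0.840, 0.363 and 0.1002, above every GM library, and its adjusted p was 0.358 (limma). Its mean over the control libraries was under the filter, so it was tested only through the tKO libraries, which also enter the spread. Actin genes are alike in their coding sequence, so reads may be split between them. Troponin T of fast fibres, Tnnt3, rose from 0.186, 2.01, 0.0275 and 0.285 to 204, 259, 187 and 223 (log2 change 7.21 ± 0.27 (SE), adjusted p = 1.18e-11), that of slow fibres, Tnnt1, from 0.378, 0.190, 0.112 and 0.435 to 71.2, 88.5, 58.2 and 79.0 (log2 change 5.87 ± 0.20 (SE), adjusted p = 3.17e-12), and the cardiac form, Tnnt2, which embryonic muscle also makes, from 4.48, 3.40, 4.57 and 3.98 to 15.4, 19.8, 14.01 and 14.5. Fast and slow isoforms thus rose side by side. The same held for troponin I, with Tnni2 of fast fibres at 64.3, 68.2, 61.4 and 45.3 and Tnni1 of slow fibres at 8.33, 17.6, 6.10 and 8.26 in DM3, and for the slow troponin C, Tnnc1, at 39.2, 47.4, 23.9 and 35.8. The fast troponin C, Tnnc2, was listed at 0 in all 4 DM3 libraries, a value to be read with the caution given for Rpl24. Of the tropomyosins, Tpm3 was at 248, 250.2, 261 and 237 in GM and 56.8, 52.9, 61.3 and 65.1 in DM3 (log2 change -2.06 ± 0.12 (SE), adjusted p = 1.45e-09), and Tpm1 fell by 0.71; the table sums the muscle and non-muscle isoforms of each gene.

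Proteins of the Z-disc, M-band and titin filament rose in 21 of 26 tested genes and fell in 1, with a median of 1.61. Of the 26, 13 had a GM mean under 0.5 FPKM. Their share of fragments went from 0.154% to 0.429% (exact permutation p = 0.0286, adjusted 0.0413). Actn3 went from 2.39, 3.72, 1.40 and 2.88 to 215, 173, 159 and 163 FPKM (log2 change 5.66 ± 0.19 (SE), adjusted p = 3.17e-12) and Myom2 from 0.970, 1.35, 0.713 and 1.37 to 97.6, 72.0, 91.8 and 79.5 (log2 change 5.36 ± 0.22 (SE), adjusted p = 2.88e-11). Des, desmin, was already present in GM at 47.8, 36.1, 43.1 and 31.2 and reached 415, 319.8, 360.2 and 262 (log2 change 3.07 ± 0.42 (SE), adjusted p = 1.27e-05), and population 1 was above population 2 when compared within BR1 and within BR2 at both stages. Titin, Ttn, had 7 to 33 fragments per GM library and 1.16, 1.55, 1.01 and 1.85 FPKM in DM3 (log2 change 1.24 ± 0.13 (SE), adjusted p = 9.98e-07). Klhl41 and Klhl40, whose proteins steady the thin filament, rose by 5.60 and 4.04, and so did Synpo2l, Myom1, Trim54, Mybph, Pdlim3 and Csrp3. Ankrd1, a stress-responsive repeat protein, was the 1 gene that fell (log2 change -1.34 ± 0.39 (SE), adjusted p = 0.00784). Actn2, Myot and Tcap were among the 16 below the filter.

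The calcium list had 15 of 19 tested genes higher and none lower, with a median of 2.39. Of the 19, 7 had a GM mean under 0.5 FPKM. Ryr1, the release channel, went from 0.00745, 0.0550, 0.00772 and 0.0220 to 24.7, 18.8, 21.9 and 20.6 (log2 change 4.45 ± 0.17 (SE), adjusted p = 1.14e-11), and Atp2a1, the fast calcium pump SERCA1, from 0.0576, 0.810, 0.0512 and 0.133 to 51.2, 70.6, 40.6 and 54.5 (log2 change 5.46 ± 0.30 (SE), adjusted p = 1.23e-09). The pump of all cells, Atp2a2, did not pass the test, at 102, 107, 102 and 109 and 129, 92.0, 132 and 91.9. Srl (sarcalumenin), Trdn (triadin), Hrc, Casq2 and the channel subunits Cacng1 and Cacnb1 rose, by 2.39 (Casq2) to 4.81 (Srl). Cacna1s, the voltage sensor itself, was below the filter.

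Genes of the acetylcholine receptor and junction rose in 7 of 11 tested and fell in 1 (Erbb2), with a median of 1.20, and 3 of the 11 had a GM mean under 0.5 FPKM. Chrng was at 0.0617, 0, 0.0533 and 0.0552 in GM and 45.0, 42.4, 40.2 and 40.3 in DM3 (log2 change 5.36 ± 0.21 (SE), adjusted p = 1.42e-11), Chrnd at 0.252, 0.0819, 0.141 and 0.0104 and 23.6, 20.4, 21.3 and 16.7 (log2 change 4.26 ± 0.25 (SE), adjusted p = 2.11e-09), and Chrna1 at 7.21, 7.54, 5.81 and 7.48 and 87.4, 77.7, 91.6 and 76.2 (log2 change 3.40 ± 0.17 (SE), adjusted p = 2.88e-10). The DM3 libraries were close to each other and none overlapped with GM. Chrnb1 rose 1.75-fold, while the adult subunit gene Chrne had 2 fragments in 1 DM3 library and none elsewhere. Musk, Agrn and Lrp4, which organise the junction, rose by 1.20, 1.44 and 1.57.

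The promoters of Chrng and Chrna1 are shown because both rose and both hold the E-box CAGCTG, a letter string that the MyoD family can bind; the string reads the same on both strands. They come from the RefSeq promoter table (build GRCm38.p6), 250 bases before to 50 after the annotated start, 5' to 3' on the gene's strand, with CAGCTG in capitals. Chrng lies at chr1:87205561-87205860 (plus strand) with matches starting 155 and 132 bases before the start, and Chrna1 at chr2:73580289-73580588 (minus strand) with matches 92 and 44 bases before it. The Acta1 promoter, chr8:123894726-123895025 (minus strand), is shown with its CArG box, the site of serum response factor, in capitals, 73 bases before the start. The Acta1 sequence also holds CAGCTG, which is left in lower case there because just the CArG box was marked.
Chrng: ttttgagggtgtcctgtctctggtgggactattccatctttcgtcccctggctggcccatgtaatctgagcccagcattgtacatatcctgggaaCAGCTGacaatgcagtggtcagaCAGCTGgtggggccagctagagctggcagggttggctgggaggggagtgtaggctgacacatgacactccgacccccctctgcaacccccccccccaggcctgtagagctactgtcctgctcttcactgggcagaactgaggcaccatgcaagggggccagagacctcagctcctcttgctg
Chrna1: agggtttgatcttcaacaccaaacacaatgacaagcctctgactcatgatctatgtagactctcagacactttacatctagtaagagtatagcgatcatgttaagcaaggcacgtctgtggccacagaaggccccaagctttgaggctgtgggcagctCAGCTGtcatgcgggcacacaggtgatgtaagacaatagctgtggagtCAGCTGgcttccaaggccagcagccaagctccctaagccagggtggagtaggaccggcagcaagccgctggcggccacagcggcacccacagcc
Acta1: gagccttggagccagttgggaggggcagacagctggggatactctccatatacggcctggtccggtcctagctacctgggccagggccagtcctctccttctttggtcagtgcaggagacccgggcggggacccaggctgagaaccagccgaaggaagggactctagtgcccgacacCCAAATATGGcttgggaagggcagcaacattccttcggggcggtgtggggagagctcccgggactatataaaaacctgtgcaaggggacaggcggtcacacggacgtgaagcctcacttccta
CAGCTG stood in 5355 of all 32851 promoters of the table (16.3%) and a CArG box in 535 (1.63%). Among the contractile, calcium and junction lists together 30 of 66 promoters held CAGCTG (45.5%) and 5 a CArG box (7.58%), but just 53 of the 77 genes had an entry, under 80%, so that comparison is void. A match is a string of letters and not a shown binding site.

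In the list for the dystrophin complex and caveolae 8 of 15 tested genes were higher and 1 lower, with a median of 0.83. The GM mean was under 0.5 FPKM for 2 of the 15. Sgca and Sgcb (sarcoglycans) and Sspn (sarcospan) rose by 3.93, 1.93 and 1.67, and so did Lama2, the laminin chain of the muscle basement membrane (log2 change 3.56 ± 0.21 (SE), adjusted p = 1.94e-09), and Itga7, the laminin-binding integrin, at 38.5, 44.7, 36.2 and 44.0 in GM and 437, 363, 396 and 281 in DM3 (log2 change 3.13 ± 0.20 (SE), adjusted p = 3.73e-09). Dmd, the dystrophin gene, had 0 to 7 fragments in every control library, again a listed value near 0 that may not be absence. Ptrf, a caveolar coat protein, was the 1 gene that fell.

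Of 28 tested genes for creatine, glycogen and glycolysis 13 were higher and 6 lower, with a median of 0.37. Their share of fragments was 2.03% in GM and 2.32% in DM3 (exact permutation p = 0.0857, adjusted 0.111). A GM mean under 0.5 FPKM was found for 3 of the 28. Ckm, muscle creatine kinase, went from 0, 0.483, 0 and 0.130 to 15.7, 15.4, 9.66 and 7.86 (log2 change 3.48 ± 0.37 (SE), adjusted p = 9.14e-07), and Ckb, the brain form, from 4.01, 3.21, 3.67 and 2.99 to 13.5, 11.9, 11.5 and 9.12 (log2 change 1.48 ± 0.19 (SE), adjusted p = 5.74e-06). Both kinases rose. Pygm, muscle glycogen phosphorylase, rose 72.2-fold (log2 change 3.19 ± 0.18 (SE), adjusted p = 1.36e-09). The muscle forms Pgam2 and Pfkm rose by 2.73 and 1.68 while Pgam1 and Pfkl fell by 0.87 and 1.00, and Ldhb rose by 1.62 while Ldha fell by 1.16. Ldha was among the most abundant GM messages, at 1640.0, 1429.8, 1590.0 and 1241 FPKM, and all 4 DM3 libraries were lower, at 653, 683, 589 and 712. Eno3, known as the muscle enolase, fell from 474, 548, 490.3 and 518 to 304, 217, 289 and 232 (log2 change -0.97 ± 0.16 (SE), adjusted p = 7.44e-05).

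**Figure D3:**
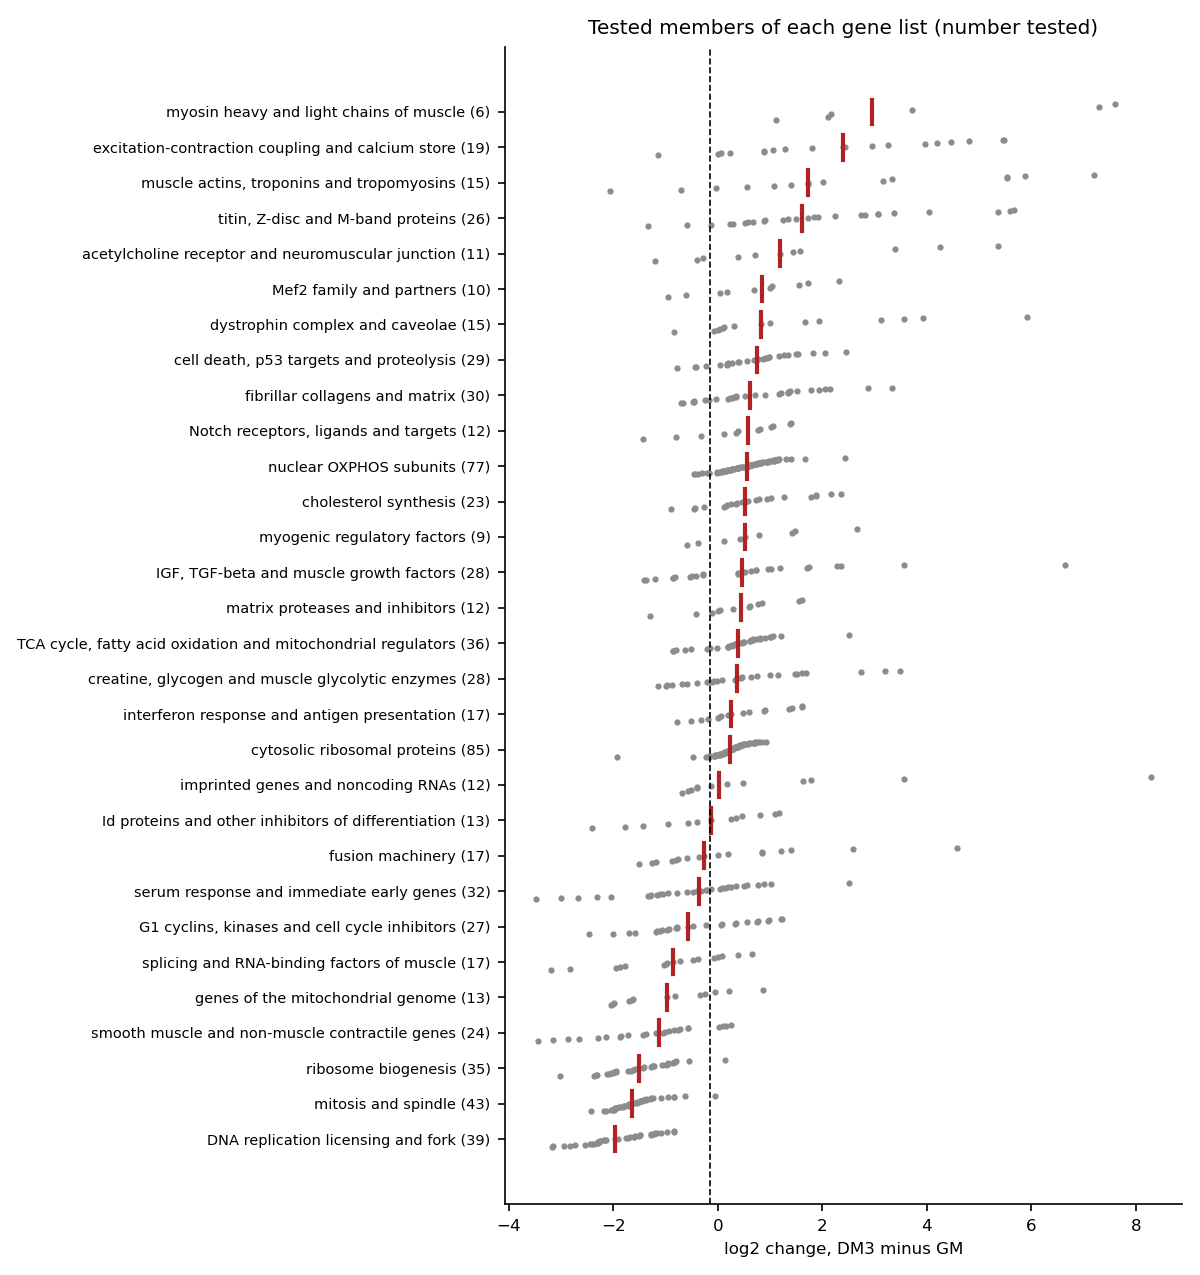
Log2 change of every tested member of 30 gene lists (points), with the list median (bar) and the median of all 11832 genes (dashed line, -0.15). The myosin, calcium and muscle actin lists lie highest, and the replication, mitosis and ribosome biogenesis lists have all or nearly all members below the line.

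Genes of DNA replication and mitosis fell almost without exception. All 39 tested genes of DNA replication licensing and the fork were lower (38.3% of all genes were), with a median of -1.97. Mcm5, of the helicase that licenses origins, was at 73.5, 86.7, 88.5 and 75.9 FPKM in GM and 8.72, 6.16, 8.63 and 9.11 in DM3 (log2 change -3.17 ± 0.21 (SE), adjusted p = 6.55e-09), and Pcna, the sliding clamp, at 118, 141, 144 and 141 and 26.4, 23.7, 27.2 and 34.0 (log2 change -2.26 ± 0.16 (SE), adjusted p = 9.37e-09). Mcm3, Tk1, Tyms, Mcm4 and Uhrf1 fell by 2.55 to 3.16. Together these genes took 0.450% of fragments in GM and 0.102% in DM3 (means of 4; exact permutation test, two-sided p = 0.0286, the smallest that 4 against 4 allows; adjusted p = 0.0413 over 13 such single values).

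Mitosis and spindle genes fell in 41 of 43 tested, with a median of -1.65 and no rise. The other 2 were Cdc25b, an activator of CDK1, at 21.8, 29.5, 25.3 and 23.0 in GM and 25.8, 21.4, 28.3 and 20.5 in DM3, and Pttg1, securin. Pttg1 was at 27.4, 15.5, 32.8 and 12.6 in GM and 9.12, 11.7, 13.98 and 10.01 in DM3 (adjusted p = 0.0842, limma). That became 0.0451 without population 2 BR2 in GM, 0.0257 with only the control libraries and 0.00952 with population averages as units. Under median-of-ratios scaling it was 0.174, and without BR1 0.671. Mki67, encoding the proliferation antigen Ki-67, fell 6.19-fold, from 37.9, 29.5, 27.0 and 41.1 to 5.29, 5.90, 3.62 and 7.06 (log2 change -2.44 ± 0.34 (SE), adjusted p = 1.32e-05). Cdk1, the mitotic kinase, was at 38.5, 58.1, 48.1 and 51.2 in GM and 16.3, 17.8, 19.5 and 16.8 in DM3 (log2 change -1.41 ± 0.17 (SE), adjusted p = 3.29e-06). Its DM3 libraries were alike and still well above 0, as were those of Pcna. The list's share of fragments went from 0.528% to 0.160% (exact permutation p = 0.0286, adjusted 0.0413).

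The Cdk1 promoter is shown because cell cycle promoters often pair a CHR element with CCAAT boxes, and both are present in it. It is the RefSeq entry at chr10:69352863-69353162 (GRCm38.p6, minus strand), 5' to 3' on the gene's strand. Capitals mark the CHR string TTTGAA, 71 and 15 bases before the start, and CCAAT on the opposite strand (ATTGG as printed), 208, 80 and 48 bases before it, with no overlap among them.
Cdk1: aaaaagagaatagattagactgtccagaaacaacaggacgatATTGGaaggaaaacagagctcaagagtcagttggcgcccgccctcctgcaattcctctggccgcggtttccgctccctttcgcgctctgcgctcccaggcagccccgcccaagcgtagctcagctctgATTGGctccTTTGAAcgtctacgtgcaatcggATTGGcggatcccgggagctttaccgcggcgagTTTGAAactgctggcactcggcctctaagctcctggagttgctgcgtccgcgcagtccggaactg
TTTGAA on either strand was in 28 of the 39 promoters matched for 36 of the 43 mitosis genes (71.8%) and in 17.9% of all 32851 promoters. CCAAT on either strand was in 29 of the 39 (74.4%) and in 37.4% of all. The corresponding counts for replication genes and for all tested genes are void, since 31 of 39 and 8877 of 11832 had an entry, under 80%.

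The G1 list was mixed, with 7 of 27 tested genes higher and 14 lower and a median of -0.58. Ccnd1, cyclin D1, was at 106, 166, 117 and 146 in GM and 23.0, 41.8, 22.9 and 47.6 in DM3 (log2 change -2.005 ± 0.27 (SE), adjusted p = 8.57e-06), and Ccnd3, the D-type cyclin known to persist in myotubes, at 18.1, 20.5, 18.6 and 19.2 and 46.0, 48.3, 45.6 and 43.6 (log2 change 1.22 ± 0.10 (SE), adjusted p = 7.55e-08). Cyclin D1 and D3 thus changed in opposite directions. Cdkn1a, the inhibitor p21, was at 168, 296, 163 and 332 in GM and 438, 474, 484 and 404 in DM3 (log2 change 0.98 ± 0.30 (SE), adjusted p = 0.0107). In GM its BR2 libraries lay well above the BR1 libraries, and all DM3 libraries lay above both. Cdkn1b (p27) and Rb1, the retinoblastoma gene, rose 2.00 and 1.78-fold, and Ccne2, Ccne1, E2f1, E2f2, E2f7, E2f8, Cdk2 and Cdk4 fell.

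Of 32 tested serum-responsive and immediate early genes 12 were lower (37.5%, near the 38.3% of all genes) and 4 higher (12.5%), with a median of -0.36. Fosl1, an AP-1 subunit, went from 62.5, 76.1, 78.7 and 71.4 to 4.53, 11.5, 5.26 and 14.8 (log2 change -3.004 ± 0.46 (SE), adjusted p = 3.97e-05). Ctgf, a target of the Hippo pathway's YAP and TEAD, was at 43.7, 78.9, 46.1 and 121 in GM and 3.67, 27.1, 4.06 and 17.8 in DM3 (log2 change -2.67 ± 0.74 (SE), adjusted p = 0.00501); within DM3 the BR2 libraries were higher than the BR1 libraries. Atf3, a stress-induced factor, rose from 0.433, 0.811, 0.389 and 0.557 to 13.7, 4.57, 15.9 and 3.21 (log2 change 2.50 ± 0.41 (SE), adjusted p = 7.57e-05), with BR1 above BR2 in DM3. The remaining 16 tested genes did not pass the test.

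Of 35 tested biogenesis genes 34 fell and none rose, with a median of -1.51. Ncl, nucleolin, was at 189, 213, 205 and 245 FPKM in GM and 63.5, 47.0, 53.1 and 47.1 in DM3 (log2 change -1.999 ± 0.15 (SE), adjusted p = 1.87e-08), and Nop56, of the snoRNP that methylates rRNA, at 55.1, 58.5, 62.4 and 63.2 and 7.56, 5.14, 7.56 and 5.96 (log2 change -3.02 ± 0.20 (SE), adjusted p = 7.45e-09). Dkc1, Utp20, Ddx21 and Fbl (fibrillarin) fell by 1.59 to 2.37. The gene that did not fall was Polr1c, a subunit of RNA polymerases I and III (adjusted p = 0.423, limma). Of 85 tested genes in the cytosolic ribosomal protein list 25 rose (29.4%, against 23.2% of all genes), 2 fell and the median was 0.24. Median-of-ratios scaling called 40 higher and 1 lower. The list's share of fragments was 5.52% in GM and 6.69% in DM3 (exact permutation p = 0.0286, adjusted 0.0413). In each of the omissions of 1 GM library the exact permutation p was 0.0571 (ratio of shares 1.18 to 1.24). The 2 that fell, Rpl7l1 and Rps27l, are named for their likeness to ribosomal proteins, and Rpl7l1 works in biogenesis. Ribosomal protein genes have many processed copies in the genome, so single values are uncertain.

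**Figure D4:**
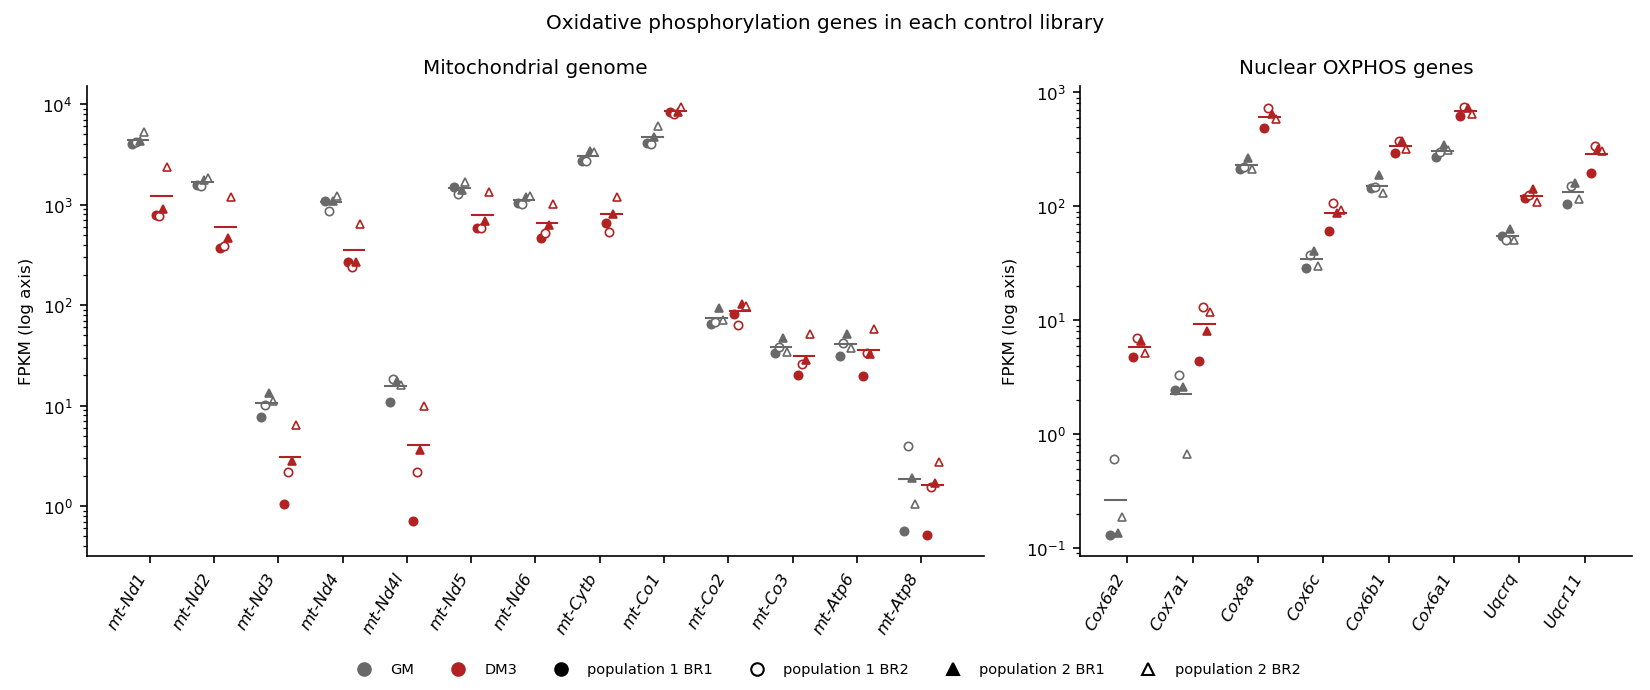
FPKM in each of the 8 control libraries (logarithmic axis; grey GM, red DM3; circles population 1, triangles population 2, filled BR1, open BR2) for the 13 protein-coding genes of the mitochondrial genome, left, and the 8 nuclear OXPHOS genes with the largest rises, right. mt-Co1 is higher in all 4 DM3 libraries than in any GM library, and mt-Nd1, mt-Nd2, mt-Nd4 and mt-Cytb are lower.

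Nuclear and mitochondrial genes of oxidative phosphorylation are given in turn. Of 77 tested nuclear subunits 50 rose and 3 fell (Ndufb2, Ndufa5 and Cycs), with a median of 0.57. The call of Cycs was lost without population 2 BR1 in GM or population 1 BR2 in DM3 (-0.33 for both), and that of Ndufa5 without any 1 library other than population 2 BR2 in GM and population 2 BR1 in DM3 (-0.46 to -0.35). Cox6a2, the heart and muscle isoform of a cytochrome oxidase subunit, went from 0.130, 0.612, 0.135 and 0.187 to 4.78, 6.96, 6.54 and 5.11 FPKM (log2 change 2.44 ± 0.35 (SE), adjusted p = 2.04e-05), Cox7a1, another muscle isoform, from 2.44, 3.32, 2.61 and 0.675 to 4.39, 13.1, 8.11 and 11.8 (log2 change 1.66 ± 0.35 (SE), adjusted p = 0.000729), and the widely used Cox8a from 214, 222, 265 and 213 to 488, 722, 650.2 and 580.5 (log2 change 1.40 ± 0.17 (SE), adjusted p = 2.35e-06). Of the 13 genes of the mitochondrial genome 1 rose and 8 fell, with a median of -0.97. Their summed share of fragments, 2.16% in GM and 1.82% in DM3, did not pass the test (exact permutation p = 0.2, adjusted 0.236). mt-Co1, the catalytic subunit of cytochrome oxidase, was the one that rose, from 4065, 4003, 4705 and 6077 to 8419, 7929, 8323 and 9272 (log2 change 0.87 ± 0.21 (SE), adjusted p = 0.00183). mt-Nd1 was at 3969, 4186, 4309.5 and 5247 in GM and 792, 772, 902 and 2359 in DM3 (log2 change -2.04 ± 0.46 (SE), adjusted p = 0.00119), with population 2 BR2 apart from the other DM3 libraries, and mt-Cytb at 2721, 2739, 3405 and 3339 and 662, 533, 806 and 1196 (log2 change -1.99 ± 0.37 (SE), adjusted p = 0.000201). The nuclear genome holds copies of mitochondrial sequences, and mt-Co2, normally about as abundant as mt-Co1, was listed at 64.1, 67.2, 94.0 and 71.0 FPKM in GM, so levels and changes of single mitochondrial genes are uncertain.

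In the list for the TCA cycle, fatty acid oxidation and mitochondrial regulators 21 of 36 tested genes rose and 5 fell, with a median of 0.38. Pdk2, a kinase that restrains pyruvate dehydrogenase, was at 2.37, 2.80, 2.07 and 2.48 in GM and 16.1, 22.4, 16.6 and 19.1 in DM3 (log2 change 2.50 ± 0.14 (SE), adjusted p = 1.65e-09), and Mdh1 and Idh2 rose by 1.20 and 1.00. Nrf1 and Tfam, regulators of mitochondrial gene expression and of mitochondrial DNA, fell by 0.85 and 0.80. Ppargc1a, the coactivator PGC-1 alpha, was at 0.372, 0.318, 0.523 and 0.347 in GM and 1.23, 1.11, 1.05 and 1.16 in DM3. Its groups did not overlap, but its adjusted p was 0.0817 (limma). It was 0.000198 with only the control libraries, 0.0482 under median-of-ratios scaling and 0.00383 with population and replicate as a block. With the averages of the 2 populations as units it was 0.221.

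Cholesterol synthesis rose in 10 of 23 tested genes and fell in none, with a median of 0.53. Mvd was at 23.1, 12.9, 21.96 and 14.4 in GM and 134, 68.0, 128 and 66.0 in DM3 (log2 change 2.35 ± 0.33 (SE), adjusted p = 1.53e-05), and Fdps at 111, 74.7, 104 and 77.7 and 562, 299, 588 and 288 (log2 change 2.17 ± 0.35 (SE), adjusted p = 5.45e-05); both make isoprenoid precursors of sterols. BR1 was above BR2 in both genes at both stages, and the rise was present in each: within BR1 the log2 change of Mvd was 2.49 and within BR2 2.22. Pmvk, Cyp51, Nsdhl, Fdft1 and Dhcr7 rose by 1.01 to 1.87.

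Collagens and other matrix genes rose in 15 of 30 tested and fell in 3 (Lox, Lamb1 and Col6a3), with a median of 0.62. Those 3 calls did not hold without 1 library: Lox was lost without population 1 BR1 in GM or either BR1 library in DM3 (-0.61 to -0.57), and Lamb1 and Col6a3 without either BR2 library in GM or either BR1 library in DM3 (-0.45 to -0.35). Dcn, decorin, went from 1.35, 2.39, 1.54 and 3.45 to 25.2, 34.4, 28.0 and 32.8 FPKM (log2 change 3.33 ± 0.35 (SE), adjusted p = 7.62e-07), Postn, periostin, from 3.06, 5.14, 2.80 and 7.41 to 31.9, 52.8, 24.8 and 49.3 (log2 change 2.87 ± 0.26 (SE), adjusted p = 1.46e-07), and Col6a1 from 48.6, 57.4, 47.7 and 61.8 to 189, 329, 198 and 277 (log2 change 2.15 ± 0.20 (SE), adjusted p = 2.06e-07). None of these overlapped between stages. Sparc and Fn1, fibronectin, were abundant in both, Sparc at 645, 1088, 741 and 1093 in GM and 2678, 4039, 3164 and 3513 in DM3 (log2 change 1.93 ± 0.20 (SE), adjusted p = 5.57e-07). The matrix list took 2.91% of fragments in GM and 6.21% in DM3 (means of 4; exact permutation p = 0.0286, adjusted 0.0413). Mmp2, a gelatinase, rose 3.17-fold, and Timp3, an inhibitor of such proteases, fell (log2 change -1.30 ± 0.36 (SE), adjusted p = 0.00526).

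The list of smooth muscle and non-muscle contractile genes moved the opposite way to the sarcomere, with none of 24 tested genes higher and 20 lower, and a median of -1.12; after median-of-ratios scaling 2 were higher and 19 lower. Actb, cytoplasmic beta-actin, was at 2835, 2379, 2510.2 and 2484 FPKM in GM and 555, 394, 462 and 695 in DM3 (log2 change -2.31 ± 0.25 (SE), adjusted p = 1.15e-06), and Tpm4 at 409, 435, 394 and 489 and 55.3, 77.6, 57.3 and 83.4 (log2 change -2.66 ± 0.17 (SE), adjusted p = 4.75e-09). The smooth muscle genes Actg2, Tagln, Cnn1 and Acta2 fell by 3.44, 2.86, 1.43 and 1.37. Actg2 in GM was at 129.5, 301, 135 and 299.7, with BR2 above BR1, and in DM3 at 20.2, 18.8, 14.4 and 16.9. The list's share of fragments went from 3.83% to 1.82% (exact permutation p = 0.0286, adjusted 0.0413). Beta-actin, often used to normalise such samples, thus differed 4.85-fold between the stages.

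Notch genes rose in 7 of 12 tested and fell in 2, with a median of 0.58. Among the 12, 2 had a GM mean under 0.5 FPKM. The ligands Jag1 and Dll1 rose, Dll1 from 0.216, 0.258, 0.232 and 0.189 to 1.79, 2.72, 1.59 and 2.76 FPKM (log2 change 1.37 ± 0.16 (SE), adjusted p = 1.91e-06), and the receptor Notch1 rose 2.42-fold (log2 change 1.02 ± 0.15 (SE), adjusted p = 1.91e-05). Hes1, the classical target, fell from 4.58, 5.65, 4.61 and 5.67 to 1.16, 1.88, 0.642 and 1.55 (log2 change -1.43 ± 0.28 (SE), adjusted p = 0.000288). The ligands and the receptor were higher at the stage at which this target was lower.

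Among 28 tested growth factor genes 13 rose and 7 fell, with a median of 0.45. The GM mean was under 0.5 FPKM for 4 of the 28. Besides Igfbp5 and Igf2, Tgfb2 and Tgfb3 rose by 1.71 and 1.75. The stress-linked hormone genes Fgf21 and Gdf15 rose: Fgf21 was listed at 0 in all GM libraries and at 3.94, 3.59, 6.65 and 3.05 FPKM in DM3, at least 33.2-fold higher (log2 change 2.36 ± 0.28 (SE), adjusted p = 2.9e-06), and Gdf15 went from 11.4, 25.2, 18.8 and 36.4 to 111, 101, 165 and 68.3 (log2 change 2.28 ± 0.39 (SE), adjusted p = 0.000111). Fgf7, Wnt4, Fgfr1 and Met, the HGF receptor, fell.

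Splicing factors fell in 12 of 17 tested and rose in 2 (Rbm38 and Rbfox2), with a median of -0.86. Srsf3 was at 74.6, 73.8, 74.5 and 75.6 in GM and 7.83, 6.54, 8.01 and 6.74 in DM3 (log2 change -3.19 ± 0.12 (SE), adjusted p = 1.42e-11), Srsf1 at 53.2, 50.2, 54.5 and 51.9 and 4.37, 7.95, 5.76 and 8.89 (log2 change -2.83 ± 0.23 (SE), adjusted p = 3.8e-08), and Ptbp1, the repressor of many muscle exons, at 125, 115, 139.7 and 109 and 32.5, 30.6, 36.5 and 24.7 (log2 change -1.95 ± 0.15 (SE), adjusted p = 2.58e-08). No DM3 library of these genes came near its GM range. Mbnl1 and Celf1, which regulate developmental splicing in muscle, fell by 0.97 and 0.86.

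The list of cell death, p53 targets and proteolysis rose in 19 of 29 tested and fell in 2 (Bax and Capn2), with a median of 0.75; the call of Capn2 was lost without either BR2 library in GM or any DM3 library other than population 1 BR2 (-0.45 to -0.38). Bbc3, encoding the BH3-only protein PUMA, went from 4.70, 4.97, 4.10 and 4.59 to 35.3, 31.6, 38.5 and 17.2 (log2 change 2.44 ± 0.34 (SE), adjusted p = 1.23e-05), and Ctsd, the lysosomal protease cathepsin D, from 203, 238, 206 and 225 to 766, 1127, 836 and 945 (log2 change 2.06 ± 0.16 (SE), adjusted p = 3.34e-08). The muscle ubiquitin ligases Fbxo32 (atrogin-1) and Trim63 (MuRF1) rose by 1.54 and 1.49. Of 17 tested interferon and antigen presentation genes 5 rose (29.4%, against 23.2% of all genes) and none fell, with a median of 0.25. After median-of-ratios scaling 8 rose. As 2 of the 17 had a GM mean under 0.5 FPKM, the share of rises is a description. B2m, the light chain of MHC class I, went from 133, 139, 151 and 159 to 333, 593, 396 and 509 (log2 change 1.62 ± 0.19 (SE), adjusted p = 1.9e-06).

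The largest change of any gene was in a noncoding RNA. H19 (chr7:142575529-142578143), an imprinted transcript next to Igf2, was at 45.3, 19.9, 33.4 and 16.7 FPKM in GM and 8903, 8665, 8432 and 8820.1 in DM3 (log2 change 8.30 ± 0.82 (SE), adjusted p = 4.3e-07), a 302-fold difference of means. Its mean was the highest of any gene in DM3, where its libraries lay within a narrow range; in population 2 BR2 mt-Co1 was higher. Other genes at the top in DM3 were mt-Co1, Eef1a1 (the elongation factor), Lgals1 (galectin-1) and Rplp1, and in GM Lgals1, Eef1a1, mt-Co1, Ftl1 (ferritin light chain, a gene with many processed copies) and mt-Nd1. Lgals1 was at 4524, 6079.6, 5893 and 4523 and 5179, 4814, 6369 and 4421 and did not change detectably. The 10 most abundant genes of each library took 6.08% of fragments in GM and 10.9% in DM3 (means of 4; exact permutation p = 0.0286, adjusted 0.0413).

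Further noncoding changes were smaller. Among the 5 long noncoding genes with the largest changes, Gm22 fell from 12.02, 10.4, 9.34 and 12.02 to 0.357, 0.671, 0.683 and 1.87 (log2 change -2.71 ± 0.27 (SE), adjusted p = 3.86e-07), and 2410006H16Rik, Gm15344 and 4930500J02Rik rose by 2.08, 2.04 and 1.95. Gm15344 in population 2 BR2 was at 1.89 in DM3 and 1.82 in GM. Malat1, a nuclear RNA, went from 97.1, 147, 70.0 and 165 to 288, 406, 275 and 483 (log2 change 1.63 ± 0.26 (SE), adjusted p = 4.23e-05).

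H19 and a locus on chromosome 1 overlap microRNAs, whose mature sequences are shown because poly(A) libraries measure longer transcripts and not the microRNAs, and because miR-206 is one of those removed in the tKO clones. The table's row mmu-mir-133b (chr1:20679023-20684298) starts within the 5p arm of miR-206, holds its 3p arm and both arms of miR-133b, and stood at 0.0217, 0.00763, 0 and 0.0233 FPKM in GM and 0.293, 0.636, 0.655 and 3.40 in DM3, under the filter and not tested; population 2 BR2 was highest. H19 holds miR-675 on the minus strand. Sequences are from RefSeq (GRCm38.p6), 5' to 3', with the seed, bases 2 to 8, in capitals.
miR-206-3p: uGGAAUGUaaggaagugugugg
miR-133b-3p: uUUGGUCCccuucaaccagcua
miR-675-5p: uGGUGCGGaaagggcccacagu
miR-675-3p: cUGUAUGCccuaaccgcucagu
The 4 seeds differ from each other.

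Some genes were at or near 0 at one stage. With at most 3 fragments in every GM library and at least 1 FPKM in every DM3 library stood 13 genes, among them Tmem8c, Myh3, Myog, Smyd1, Fgf21, Apobec2 (a muscle member of the deaminase family, at 3.35, 3.06, 3.40 and 2.74 in DM3), Hhatl, Lmod2 and Lmod3 (leiomodins, which nucleate actin filaments; Lmod3 at 1.55, 2.28, 1.01 and 2.03). The reverse held for 2 genes, Lce1g and Traj32, and Traj32 rests on 4 to 15 fragments per GM library.

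Markers of cell types were examined for the labels. Of 6 myoblast markers 5 rose and Myf5 did not pass the test, so these genes, Des, Itga7, Cdh15, Vcam1 and Myod1, are not specific to GM here. The rise of Myod1 starts from a listed 0 in GM, to be read with the caution given for Rpl24. That of Vcam1 was 0.27 within BR1 (adjusted p = 0.43, limma) and 1.16 within BR2 (adjusted p = 0.00328, limma). All 6 myotube markers rose, but 4 of the 6 had a GM mean under 0.5 FPKM, so that count is a description. Of other cell types, the 4 endothelial markers were below the filter (summed 0.0206 to 0.102 FPKM in GM and 0.0158 to 0.0434 in DM3), and of 5 adipocyte, 7 osteoblast or chondrocyte, 4 neural and 3 leukocyte markers of the table, 1 of each was tested and none called. The fibroblast list summed to 46.0 to 62.4 FPKM in GM and 77.9 to 246 in DM3. Of its 5 markers Dcn and Ly6a were higher, Pdgfra was tested and not called (log2 change 0.053), and Tcf21 and Col15a1 were below the filter. The call of Ly6a was lost without either BR2 library of DM3 (0.88 and 0.97), and the part of such cells in the matrix result was not tested. Of 4 smooth muscle markers 3 were tested: Cnn1 and Acta2 fell, as given above, and Smtn rose by 0.44, a call lost without population 1 BR1 or population 2 BR2 in GM or population 1 BR2 in DM3 (0.38 to 0.41). Of 5 markers of reserve or quiescent satellite cells 2 were tested; Spry1 rose by 1.51 and Cd34 did not pass (log2 change 0.42, adjusted p = 0.0925, limma, and 0.0206 with population and replicate as a block). Of 4 cardiac markers 2 were tested and none called. Pax7 was below the filter in all libraries, as the PAX7-negative label has it.

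The change on differentiation was compared with that in tKO cells, to show where the control cells differ. The difference between the control and tKO changes passed the test for 30 of 11832 genes (0.254%), with 1278 at an unadjusted p under 0.05. The change was more positive in control cells for 6 of the 30, among them Sema3d, Spry1 and Trim72. It was more negative for 24, among them Slc25a1. The count of 30 depended on the setting and on single libraries: it was 7 with population or clone and replicate as a block, 13 with 0.1 added to FPKM in place of 1, and from 6 (without clone 2 BR2 in DM3) to 179 (without clone 1 BR1 in DM3) when 1 of the 16 libraries was left out. Slc25a1, the mitochondrial citrate carrier, changed by 0.10 in control and 1.88 in tKO cells (interaction adjusted p = 9.84e-05, limma), and passed under every one of those alternatives. Sema3d, a secreted guidance protein, changed by 3.44 in control and 0.84 in tKO cells (0.00107), and Spry1, an inhibitor of growth factor signalling, by 1.51 and 0.30 (0.00343). Both passed without any 1 library, but with 0.1 added the adjusted p was 0.131 for Sema3d and 0.307 for Spry1, and under the block 0.0558 for Spry1. Trim72 changed by 2.58 in control and 1.04 in tKO cells (0.0193), and that difference did not pass without any 1 of the GM control libraries, without control population 1 BR2 or clone 2 BR2 in DM3 (0.0507 to 0.0552), under the block (0.0622) or with 0.1 added (0.0848). Myog, Myod1 and Tmem8c were not among the 30 genes. A gene that did not pass may still differ by an amount this design cannot resolve.

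Within the control libraries the replicate number left a visible mark. At DM3, libraries with the same replicate number in different populations were closer to each other (Pearson r of 0.991 and 0.992 across genes, which are not independent replicates) than the 2 replicates of 1 population (0.982 for each), and between stages r was 0.864 to 0.893. Myog, Id1, Id2, Fosl1, Ccl2 and Ctgf were higher in both BR2 than in both BR1 libraries at DM3, and Mvd, Fdps and Atf3 were higher in BR1. Within BR1 alone the log2 change was 2.05 for Myog, -2.23 for Id1, -3.24 for Ctgf and 3.48 for Atf3, and within BR2 alone 3.27, -1.33, -2.10 and 1.53. Within BR1 4971 genes passed the test and within BR2 4808, and within population 1 4693 and population 2 4440. Of the 7272 called genes 7190 (98.9%) had 1 sign in all 4 comparisons of a DM3 library with the GM library of the same population and replicate. The genes were called from these same libraries, so that share is a description and no separate support for the calls.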

How the data were processed

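RNA-seq was measured in 16 libraries of control and tKO C2C12 cells, 4 for each genotype at each stage. The authors deposited 1 table of FPKM for 35275 genes with gene lengths and mm10 coordinates, per the file headers; the submitters' processing notes name STAR, DESeq and mm10, with no role or version given. Whether counting used strand is not given in the sources used here. Every positive FPKM times gene length was a whole multiple of 1 fragment (100% of values within 0.01), so fragments and depth were recovered, and each zero was set to a floor of 3 fragments per library for lower bounds.

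limma 3.58.1 (R 4.3.3; moderated, with intensity trend and robust variance) was fitted to log2(FPKM + 1) of all 16 libraries, with 4 group means, after a filter at a mean of 0.5 FPKM. Python 3.11.15, numpy 2.4.6, pandas 2.3.3 and matplotlib 3.10.9 gave the other values. On simulated data for the stage comparison over 11832 genes the fit recovered 90% of 2-fold and 97% of 4-fold changes, and 9 of 196 calls (4.59%) were false. In it 200 genes were changed, all above 1 FPKM in GM, by shifts of log2(FPKM + 1). Noise was independent between libraries, with no effect of population or replicate. These rates therefore do not carry over to genes near 0, or to data in which most genes change and replicates leave a mark. Alternatives were pseudocount, filter, TPM, median-of-ratios and quantile scaling, only the control libraries, a replicate block, voom on fragments, line averages and leaving out libraries. The labels tie a GM and a DM3 library to the same population and replicate. Their deviations from the group means correlated with r of 0.28, 0.092, 0.29 and 0.15 over tested genes. For pairs not so tied r ran from -0.30 to 0.24, so the matched values alone do not show a pairing beyond the labels. No 2 libraries of a stage were closer than counting noise (chi-square per gene 20.5 to 109).

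The members and gene lists were chosen with earlier results of these data known. Genes named are the 15 largest non-overlapping rises and falls among protein-coding genes, list members by role and then by size of change, the 5 highest genes at each stage and the 5 largest noncoding changes; other names were chosen after their values were seen. Some genes that the rule names are not reported here.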

Additional observations from a re-analysis of the deposited data

Results flagged for a closer look

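In 31 of the 540 groups of 4 values examined (1 gene or share at 1 stage), a single library lay far from the other 3 by Dixon's criterion. Chance alone gives about 1 in 20 such groups. The library that stood apart most often was the GM library of population 1 BR2. It was above the other GM libraries in genes of differentiated muscle, with 2.01 FPKM in Tnnt3 (the others reached 0.285), 1.12 in Myl1 (0.114), 0.883 in Myh4 (0.0408), 0.810 in Atp2a1 (0.133), 0.612 in Cox6a2 (0.187), 0.0694 in Mybph (0) and 0.0575 in Tnnc2 (0). It was also higher in Pfkm, at 44.7 (34.7 to 36.2 in the others), and in Tcf21, at 0.0658 (0), and lower in Eya1, at 7.37 (10.1 to 10.4), Spry1, at 0.189 (0.279 to 0.289), and Chrng, at 0 (0.0533 to 0.0618).

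Other GM values that stood apart were Pcna in population 1 BR1, at 118 (140.9 to 144), and, in population 2 BR1, Cox8a at 265.5 (213 to 222) and Tyms at 20.7 (16.1 to 16.8). In DM3, population 1 BR2 was lower in Mcm5, at 6.16 (8.63 to 9.12), Dkc1, at 5.67 (7.31 to 7.48), and Ptrf, at 162 (186 to 190), and higher in Trim72, at 7.12 (4.91 to 5.11), and Gm7325, at 0.477 (0.0307 to 0.0737). Population 2 BR2 was the highest DM3 library for transcripts of the mitochondrial genome, with mt-Nd1 at 2359 (772 to 902), mt-Nd2 at 1183 (370.4 to 463) and mt-Nd4 at 641 (238 to 268), and for mmu-mir-133b, at 3.40 (0.293 to 0.655).

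Some groups differed only because 1 library held a few fragments and the other 3 held none: Myog at 0.0191 and Pax7 at 0.00489 FPKM in population 1 BR1 of GM, Col15a1 at 0.0115 and Myot at 0.0269 in population 2 BR1 of GM, Mef2b at 0.0263 and Myot at 0.00800 in population 1 BR2 of DM3, and Chrne at 0.0324 in population 1 BR1 of DM3.

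The change on differentiation differed between control and tKO cells (limma interaction) in 4 of the genes named, by 2.60 for Sema3d (adjusted p = 0.00107), 1.21 for Spry1 (0.00343), 1.54 for Trim72 (0.0193) and -1.78 for Slc25a1 (9.84e-05), given as control minus tKO; the alternatives under which Spry1, Sema3d and Trim72 do not pass stand beside those genes in the report.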

How the results depend on the processing

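The count of 7272 called genes stayed within 1.5 times under other pseudocounts, filters and scalings, voom and each omission of 1 control library (6680 to 7021 called, 2500 to 2637 higher, 4163 to 4459 lower). With population and replicate as a replicate block it was 7527, of which 7103 were called in the same direction without it; the block ended the call of Six4 and brought those of Ppargc1a and Cd34, and changed no other call of a named gene on differentiation. Leaving the tKO libraries out of the fit raised the count to 8253 (3174 higher, 5079 lower), and to 8490 with the block as well. With fewer control libraries or a size limit the counts fell: without population 1 there were 4440 called (1667 higher, 2773 lower), without population 2 there were 4693 (1615 higher), without BR1 4808 (2968 lower), without BR2 1732 higher, and at a change of at least 1 there were 2476 (904 higher, 1572 lower). The interaction count of 30 became 7 under the replicate block, 13 with a pseudocount of 0.1 and 6 to 179 when each of the 16 libraries was left out, an alternative chosen after seeing the data; the cause was not tested. Of 223 called genes named, 10 lost their call under median-of-ratios scaling (Arhgap10, Capn2, Col6a3, Cycs, Lamb1, Lox, Ndufa5, Rps27l, Tcf3 and Tead1), 4 under quantile scaling, 8 with no filter, 5 with population averages as units, 2 in TPM and 11 without 1 library. Without population 1, population 2, BR1 or BR2, which leaves 2 control libraries a stage, 46, 37, 43 and 31 lost it. Among them only Eef1a1 changed sign (-0.26 under quantile scaling). The others that changed sign had not passed the test: Atp2a2 (-0.016 and -0.026 without either BR1 library of DM3, -0.23 without BR1), Cdc25b (0.14 by median of ratios, 0.11 by quantile scaling, -0.14 to 0.026 without 1 library, 0.19 without BR2), Id3 (0.018 without BR1), Lgals1 (0.19 by median of ratios, -0.12 to 0.059 without 1 library, 0.040 without population 1, 0.15 without BR2), Myf5 (-0.059 to 0.26 without 1 library, -0.010 without population 2, -0.046 without BR2), Polr1c (-0.046 without BR1) and Slc25a1 (-0.010 without population 2). The median of the inhibitors of differentiation was 0.052 by median of ratios and 0.082 by quantile scaling. Counts of 3 or more within lists that moved by over 1.5 times under median-of-ratios scaling were the rises of ribosomal proteins (40 against 25), interferon genes (8 against 5) and inhibitors of differentiation (5 against 3), and the falls of nuclear OXPHOS (1 against 3) and matrix genes (0 against 3). The ratios of fragment shares kept their direction without any 1 library, and that of ribosomal proteins was 1.18 to 1.25, with an exact permutation p of 0.0571 without any 1 GM library. Low genes are limited by depth and by the added 1.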
